A study of Oryza sativa with 15 samples.

Results

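The rice catalase genes CATA (LOC_Os02g02400.MSUv7.0), CATB (LOC_Os06g51150.MSUv7.0) and CATC (LOC_Os03g03910.MSUv7.0), 3 of the 24073 genes in the count table, are described here over every group of a drought and heat experiment. They are defined by their locus identifiers, and all 3 passed the filter on low counts that left 20462 genes for testing. Messenger RNA came from whole shoots of the japonica cultivar Nipponbare. Seeds were germinated for 3 days, and seedlings were grown for 10 days with 7 to a pot. Growth was at 30 °C in the light and 27 °C in the dark under 12 h of light and 90% humidity. Wet control soil held 3 g of water per g, mild drought soil 1.5 g per g and severe drought soil 1.25 g per g, with no heat in these groups. The 2 heat groups were wet pots moved to 40 °C for 30 or 60 min before collection, and all shoots were frozen 6 h after dawn. The 5 groups had 3 libraries each. Whether replicates were grown in separate pots is not in the labels, so the p-values measure only the spread between these samples, and that spread may be technical.

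Catalases are heme enzymes of the peroxisome that split hydrogen peroxide into water and oxygen without using a reductant. In green leaves much of that peroxide comes from photorespiration, in which glycolate oxidase oxidises the glycolate left when Rubisco fixes oxygen in place of carbon dioxide. CATC is known in rice as the catalase whose loss lets hydrogen peroxide build up in leaves. Ascorbate peroxidases and peroxiredoxins remove peroxide by spending reductant. They act in the cytosol, chloroplast and mitochondria, and some ascorbate peroxidases act in the peroxisome.

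Total counts per library ran from 49479059 to 77969214. The TMM factors, which correct for differences in RNA composition, were 0.622 to 0.706 in the libraries taken after 30 min of heat and 0.999 to 1.318 in all the others. Levels are given as CPM, each library's counts over its total, scaled by these factors, which are not divided by transcript length and so are compared between groups for 1 gene, not between genes. Transcripts of the light-harvesting genes CAB1R and CAB2R, which mark green tissue, averaged 9135 to 20392 CPM over the groups, the root silicon transporter LSI1 averaged 16.2 to 25.3 CPM, and the root transporter LSI2 had 0 counts in every library. The 3 root markers that could be matched summed to 13.3 to 36.7 CPM per library, without the scaling factors. In whole-shoot RNA, fewer cells of a type and less RNA per cell cannot be told apart.

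CATA transcripts fell in heat, and fell further between 30 and 60 min. In the wet control the 3 libraries had 835, 648 and 1431 CPM of CATA. After 30 min at 40 °C they had 487, 296 and 262 CPM, and after 60 min 71.5, 69.0 and 62.7 CPM. The 3 groups did not overlap: every library of the 30 min group lay below every wet control library, and every library of the 60 min group lay below both. Among all genes tested, 25% were separated downward from the wet control in this way at 30 min, 24.7% at 60 min, and 26.2% from 30 to 60 min. The group means ± SD (n = 3) were 971 ± 409 CPM in the wet control, 348 ± 121 CPM at 30 min and 67.7 ± 4.51 CPM at 60 min. The spread was narrowest where the level was lowest, with a coefficient of variation of 6.67% at 60 min.

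After 30 min CATA was 2.79-fold lower than in the wet control, a log2 fold change of -1.48 ± 0.41 (SE), with a 95% interval of -2.36 to -0.60 and an adjusted p of 0.0116 in edgeR's quasi-likelihood test. It was the 1 catalase of 3 that passed the test at this time, where 19.6% of all genes tested fell and 19.3% rose. After 60 min it was 14.3-fold lower than in the wet control, with a log2 fold change of -3.84 ± 0.45 (interval -4.81 to -2.88, adjusted p = 3.46e-05). Again it was 1 of 3, against 15.8% of all genes that fell, and 180 of the 20462 genes tested had a lower fold change. From 30 to 60 min CATA fell 5.14-fold, by 2.36 ± 0.42 on the log2 scale (interval -3.27 to -1.46, adjusted p = 0.00156), in a comparison in which 13.9% of all genes fell. Both heat groups were set against the same 3 wet control libraries, and the comparison from 30 to 60 min used both heat groups again. None of these values of CATA is therefore independent of the others.

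The fall at 30 min depends in size on how libraries are scaled. Scaled by total counts alone, the log2 fold change of CATA was -2.35 at 30 min, -3.98 at 60 min and -1.63 from 30 to 60 min, while the median over all genes moved by -0.88, -0.12 and 0.76. CATA passed the test in each of these comparisons under both scalings.

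Some markers of green tissue fell with CATA after 60 min of heat, but none had fallen at 30 min or in drought on the TMM scale. Of the 3 shoot markers that could be matched, CAB2R and a Rubisco small subunit gene (LOC_Os12g17600.MSUv7.0) fell at 60 min against the wet control, by 0.77 ± 0.24 and 0.88 ± 0.30 on the log2 scale, and CAB1R was at -0.07 (adjusted p = 0.77 in edgeR). Each of these 2 calls was lost in 4 of 6 fits with 1 library left out. From 30 to 60 min the same 2 genes fell by 1.06 ± 0.24 and 1.02 ± 0.30, and were at -0.30 and -0.25 without a call by total counts, while CAB1R was at -0.47 (adjusted p = 0.057 in edgeR). With 1 library left out the Rubisco gene lost this call in 4 of 6 fits, while CAB2R kept it. At 30 min against the wet control none of the 3 was called on the TMM scale, with CAB1R at 0.40, CAB2R at 0.29 and the Rubisco gene at 0.14. By total counts, where the median over all genes moved by -0.88, the values of these 3 markers at 30 min are not given here. None was called in drought, where the values against the wet control ran from 0.27 to 0.67. CATA had negative fold changes in these comparisons. The part of these markers in the fall of CATA was not tested.

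Drought gave no call for CATA. Mild drought libraries had 409, 568 and 1030 CPM and severe drought libraries 395, 779 and 890 CPM, with means of 669 ± 322 and 688 ± 259 CPM. Both ranges overlapped that of the wet control, and mild drought replicate 3 was above wet control replicates 1 and 2. The log2 fold change was -0.54 ± 0.40 in mild drought (interval -1.40 to 0.33, adjusted p = 0.45) and -0.50 ± 0.40 in severe drought (interval -1.36 to 0.37, adjusted p = 0.53). These intervals leave room for a fall of more than 1 log2 unit as well as for a small rise. In order of mean level CATA ran from the wet control through severe drought, mild drought and 30 min of heat to 60 min of heat. Neighbours in that order overlapped in range except the 2 heat groups.

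**Figure D1:**
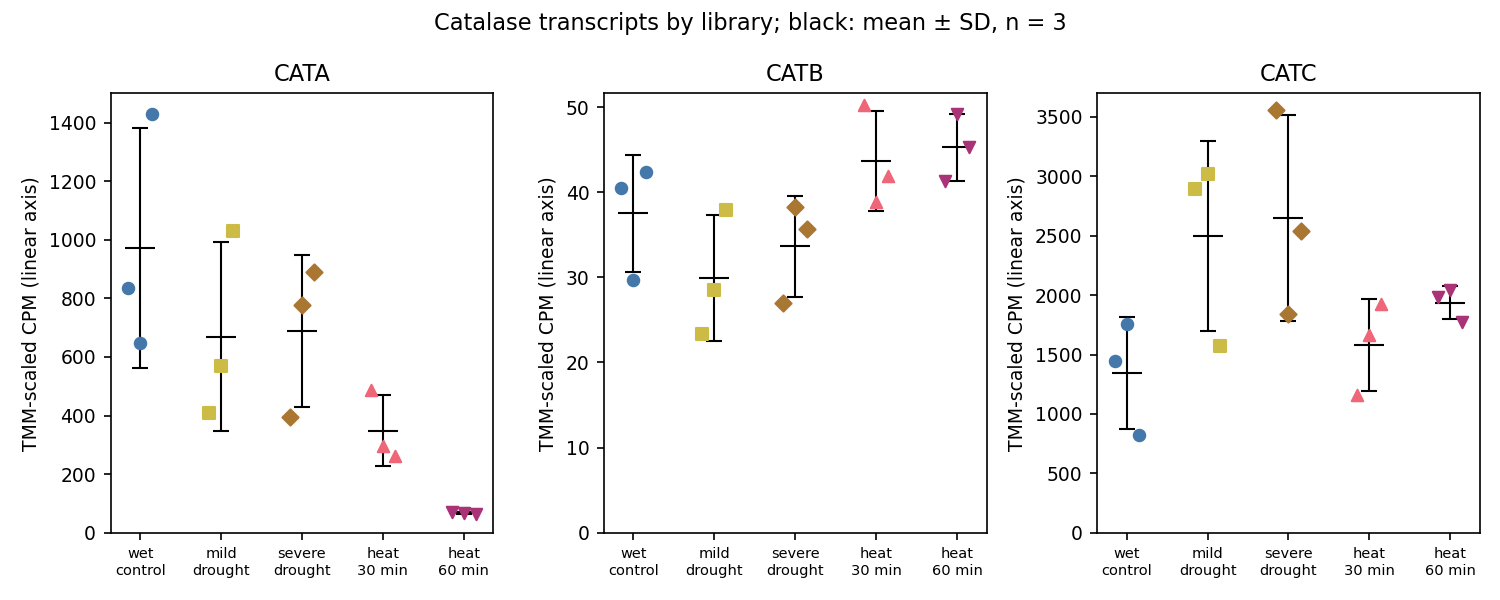
TMM-scaled CPM of CATA, CATB and CATC in each of the 15 libraries, by group on the horizontal axis, with black bars for the mean ± SD of 3 libraries. CATA drops to 62.7 to 71.5 CPM in the 60 min heat group, while CATC spreads from 826 to 1755 CPM in the wet control and from 1575 to 3560 CPM in the drought groups.

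CATC, the leaf catalase, had higher means in both drought groups than in the wet control, but these differences did not pass the test across all genes. Wet control libraries had 1446, 1755 and 826 CPM of CATC. Mild drought libraries had 2891, 3023 and 1575 CPM, and severe drought libraries 3560, 1837 and 2542 CPM. All severe drought libraries lay above all wet control libraries, whereas mild drought replicate 3 lay below wet control replicate 2. Libraries of 10.9% of all genes tested lay wholly above the wet control in severe drought, so that separation is common among all genes.

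The means were 1342 ± 473 CPM in the wet control, 2496 ± 800 CPM in mild drought and 2646 ± 866 CPM in severe drought. In severe drought the log2 fold change was 0.98 ± 0.33 (interval 0.26 to 1.70), with an unadjusted p of 0.0118 and an adjusted p of 0.14 in edgeR. In mild drought it was 0.90 ± 0.33 (interval 0.17 to 1.62), with an unadjusted p of 0.0189 and an adjusted p of 0.15. DESeq2 put the severe drought difference past the threshold (log2 fold change 0.99, adjusted p = 0.0358) and the mild one just outside it (0.91, adjusted p = 0.0503), where it called 8.86% and 11.6% of the genes it tested. None of the catalases passed edgeR's test in either drought, where 1.44% of all genes did in mild drought and 2.69% in severe drought.

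Heat left CATC without a call at either time. After 30 min the libraries had 1156, 1663 and 1922 CPM, with a mean of 1580 ± 390 CPM, within reach of the wet control values. After 60 min they had 1986, 2041 and 1777 CPM, with a mean of 1934 ± 139 CPM, and all lay above the highest wet control library. Such a separation upward held for 24.6% of all genes at 60 min. The log2 fold change was 0.24 ± 0.33 at 30 min (interval -0.48 to 0.95, adjusted p = 0.60), a direction that turned to -0.64 with an adjusted p of 0.068 under scaling by total counts. At 60 min it was 0.53 ± 0.33 (interval -0.19 to 1.25, adjusted p = 0.24). From 30 to 60 min it was 0.29 ± 0.33 (interval -0.42 to 1.01, adjusted p = 0.56), and 1.06 with an adjusted p of 0.0089 when scaled by total counts. In order of mean level CATC ran from severe drought through mild drought, 60 min and 30 min of heat to the wet control. Each neighbour in that order overlapped the next in range.

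CATB varied least between groups relative to its mean, and edgeR called it in no comparison. Wet control libraries had 40.5, 29.6 and 42.4 CPM. Mild drought libraries had 23.3, 28.5 and 37.9 CPM and severe drought libraries 27.0, 38.3 and 35.6 CPM. After 30 min of heat the values were 50.2, 38.8 and 41.9 CPM, and after 60 min 41.3, 49.1 and 45.4 CPM. Each of these groups overlapped the wet control, and so did neighbours in the order of mean level, which ran from 60 min and 30 min of heat through the wet control and severe drought to mild drought. The means were 37.5 ± 6.87 CPM in the wet control, 29.9 ± 7.38 in mild drought, 33.6 ± 5.88 in severe drought, 43.6 ± 5.89 at 30 min and 45.3 ± 3.90 CPM at 60 min.

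The log2 fold change of CATB was -0.33 ± 0.20 in mild drought (interval -0.76 to 0.10, adjusted p = 0.35) and -0.16 ± 0.20 in severe drought (interval -0.59 to 0.27, adjusted p = 0.71). It was 0.22 ± 0.20 at 30 min of heat (interval -0.21 to 0.65, adjusted p = 0.41) and 0.27 ± 0.20 at 60 min (interval -0.16 to 0.70, adjusted p = 0.31). From 30 to 60 min it was 0.05 ± 0.20 (interval -0.38 to 0.48, adjusted p = 0.88). The intervals for heat exclude a change of 1 log2 unit in either direction. The values at 30 min rest on the scaling: with total counts alone CATB was -0.67 against the wet control (adjusted p = 0.035) and 0.80 from 30 to 60 min (adjusted p = 0.0189).

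Severe and mild drought could not be separated for any catalase. The log2 difference of severe from mild drought was 0.04 ± 0.40 for CATA (interval -0.82 to 0.90), 0.17 ± 0.20 for CATB (interval -0.26 to 0.60) and 0.08 ± 0.33 for CATC (interval -0.63 to 0.80), each with an adjusted p of 1. No gene at all passed edgeR's test between these groups (0.0% of those tested). Of the same genes 569 (2.78%) had an unadjusted p under 0.05, and DESeq2 called 44.

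**Figure D2:**
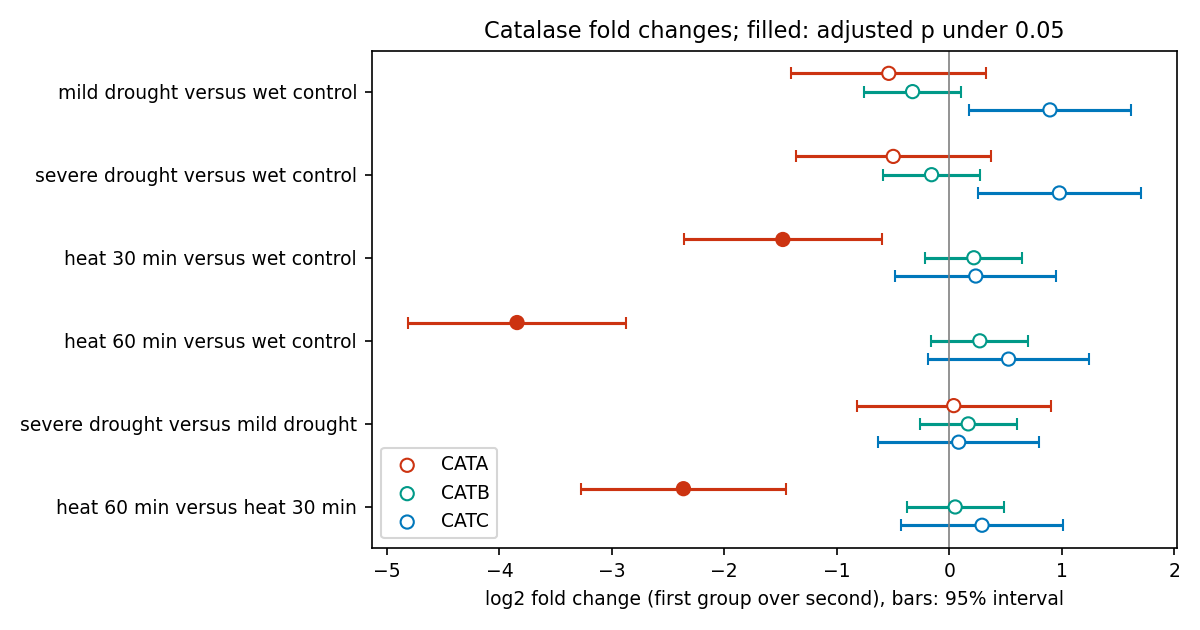
Log2 fold change of each catalase (horizontal axis, first group over second) in the 6 comparisons, with bars for the 95% interval and filled points for an adjusted p under 0.05. The 3 filled points are all CATA, at -1.48, -3.84 and -2.36 in the heat comparisons.

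Within each library the reads of the 3 catalases can be set against each other without any scaling factor. These are shares of reads, not of transcripts, since longer transcripts give more reads. CATA held 36.0%, 26.6% and 62.2% of the catalase reads in the wet control libraries, a mean of 41.6% ± 18.5. In drought it held 12.3%, 15.7% and 39.0% (mild) and 9.92%, 29.3% and 25.7% (severe). In heat it held 28.7%, 14.8% and 11.8% at 30 min and 3.41%, 3.19% and 3.33% at 60 min. CATC held the rest almost alone, from a mean of 56.8% ± 18.7 in the wet control to 94.5% ± 0.185 at 60 min, and CATB averaged 0.975% to 2.26% over the groups. Counting error was small beside the spread between libraries, since the widest 95% Wilson interval of a share reached 0.313 percentage points to either side, for counting error only.

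The reads of CATC were 0.577 to 2.71 times those of CATA in the wet control libraries and 27.8 to 29.6 times at 60 min of heat. The ratio of CATA to CATC was 20.5-fold lower at 60 min than in the wet control, with no overlap between libraries (exact permutation test on log2 ratios, two-sided, p = 0.1). With 3 libraries against 3 this is the smallest p the test can give, and it became 0.36 after adjustment over the 18 ratio comparisons. Without wet control replicate 3 the log2 difference was -3.72 in place of -4.36. At 30 min CATA to CATC was 3.31-fold lower than in the wet control, with overlapping libraries and an exact p of 0.2 (log2 difference -1.72, and -1.09 without wet control replicate 3). CATA to CATB was 16.6-fold lower at 60 min and 3.20-fold lower at 30 min than in the wet control, both without overlap and both with an exact p of 0.1. CATA to CATC was 6.20-fold lower and CATA to CATB 5.17-fold lower at 60 than at 30 min, again with no overlap and an exact p of 0.1 each.

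In drought the ratio of CATA to CATC differed from the wet control by -1.47 (mild) and -1.50 (severe) on the log2 scale, with exact p-values of 0.3 and 0.2, and by -0.83 and -0.86 without wet control replicate 3. CATB to CATC differed by -1.24 and -1.15, each with an exact p of 0.2. These ratios overlapped between the groups. CATA to CATB differed by -0.23 and -0.34, with exact p-values of 0.5 and 0.4.

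Together the 3 genes took 0.282% ± 0.0242 of all counts in the wet control, 0.342% ± 0.0556 in mild and 0.362% ± 0.0540 in severe drought. They took 0.128% ± 0.0113 after 30 min of heat and 0.226% ± 0.0143 after 60 min. On the TMM scale the sums were 2351 ± 71.1, 3195 ± 501, 3368 ± 669, 1972 ± 268 and 2047 ± 144 CPM in the same order. The scaling factors below 1 raise the values at 30 min on this scale. In the wet control CATA and CATC each varied widely while the sum over all 3 catalases ran from 2299 to 2432 CPM. That sum was less steady in the other groups. It ran from 2643 to 3620 CPM in mild drought and from 2654 to 3982 CPM in severe drought. In heat it ran from 1693 to 2226 CPM at 30 min and from 1885 to 2159 CPM at 60 min.

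**Figure D3:**
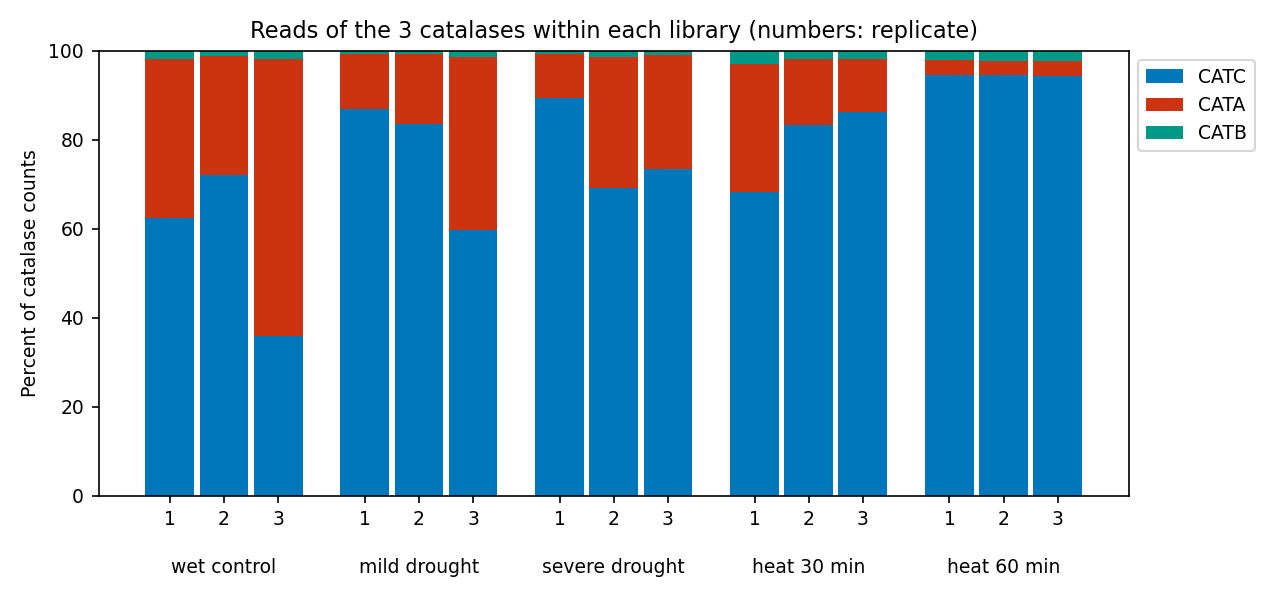
Percent of the catalase counts (vertical axis) taken by CATC, CATA and CATB in each of the 15 libraries, grouped by treatment. CATA takes 26.6% to 62.2% in the wet control and 3.19% to 3.41% in each library after 60 min of heat.

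CATA and CATC varied in opposite directions among libraries of the same group, except after 60 min of heat. In the other 4 groups all 12 libraries deviated from their group mean in opposite directions for these genes, while the 3 libraries at 60 min, with small deviations, each deviated in the same direction. Wet control replicate 3 had the highest CATA and the lowest CATC of its group, and so did mild drought replicate 3 and replicate 1 at 30 min of heat. CATA was highest where CATC was lowest in 3 of the 5 groups. Over the 15 deviations from group means, on the log2 scale, Pearson's r between CATA and CATC was -0.90 (exact permutation within groups, p = 0.0068) and Spearman's rho was -0.91 (exact p = 0.0072). Without the 2 libraries farthest from the median of CATA, replicate 3 of the wet control and of mild drought, r was -0.83.

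CATA and CATB deviated in the same direction in 11 of the 12 libraries outside the 60 min group and in 1 of the 3 within it, with r = 0.89 (exact p = 0.0036) and rho = 0.86 (exact p = 0.0055), and with r = 0.85 without the same 2 libraries. CATB and CATC deviated in opposite directions in 11 of the 12 libraries and in 2 of the 3 at 60 min, with r = -0.83 (exact p = 0.0094) and rho = -0.79 (exact p = 0.0131), and with r = -0.79 without mild drought replicates 1 and 3. These are 3 relations, and the largest adjusted p over them was 0.0094 for r and 0.0131 for rho. With libraries scaled by total counts, r was -0.83 for CATA and CATC, 0.90 for CATA and CATB and -0.66 for CATB and CATC. Without the wet control it was -0.86, 0.91 and -0.85.

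The same libraries stood apart over many genes. A first principal component of the deviations from group means took 45.5% of the variance within groups, and its highest libraries were replicate 3 of the wet control and of mild drought, replicate 2 of severe drought and replicate 1 of each heat group. Across the 15 libraries r with this component was 0.85 for CATA, 0.67 for CATB and -0.93 for CATC, given as a description since the catalases are among the genes that define it. What the libraries share along this component was not tested. How often other pairs of genes reach an r as large within groups is not given here. The exact p-values for the catalase pairs therefore do not set them apart from other genes. Without those 5 libraries the log2 fold changes of CATA were -1.42 at 30 min of heat (adjusted p = 0.0113), -3.48 at 60 min (adjusted p = 0.00024) and -2.06 between them (adjusted p = 0.0042). Those of CATC were 0.89 in mild drought (adjusted p = 0.068) and 0.95 in severe drought (adjusted p = 0.070). The 5 libraries were picked by these same values, which can narrow the spread within groups. The adjusted p-values of this edgeR fit are therefore given as a description only.

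**Figure D4:**
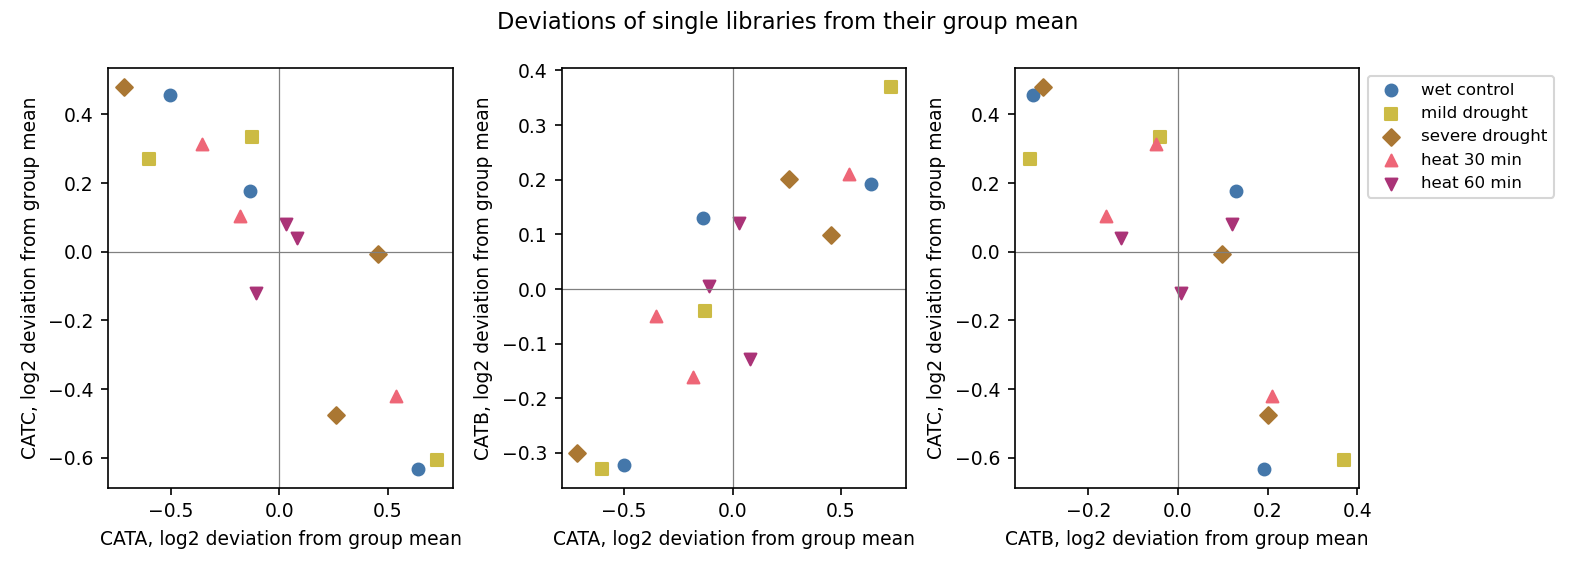
Deviation of each library from its group mean on the log2 scale for each pair of catalases, with colours and marker shapes for the 5 groups. CATA and CATC lie along a falling line (r = -0.90), CATA and CATB along a rising one (r = 0.89), and the 60 min heat libraries lie close to the centre.

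The genes whose levels followed each catalase most closely over the 15 libraries are given by identifier, as a description by Pearson's r of log2 CPM with no test. For CATA they were LOC_Os06g23114.MSUv7.0 (r = 0.976) and LOC_Os02g49130.MSUv7.0 (r = 0.973), and the first 5 ranged from 0.962 to 0.976. LOC_Os06g23114.MSUv7.0 averaged 24.6 CPM in the wet control, 13.3 CPM at 30 min of heat and 3.46 CPM at 60 min. For CATC they were LOC_Os03g38950.MSUv7.0 (r = 0.978) and LOC_Os04g41560.MSUv7.0 (r = 0.964), the former with 94.6 CPM in the wet control and 184 CPM in severe drought. For CATB they were LOC_Os03g09840.MSUv7.0 (r = 0.944) and LOC_Os07g32230.MSUv7.0 (r = 0.919). On deviations from the group means r was 0.83 for LOC_Os06g23114.MSUv7.0, 0.97 for LOC_Os03g38950.MSUv7.0 and 0.91 for LOC_Os03g09840.MSUv7.0. These libraries share the component described above.

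Glycolate oxidases make the peroxide that leaf catalase removes. Of 17 listed photorespiration genes in the count table, 7 had a name that matched the reference, and the others were left out. None of the 7 passed the test in either drought, with a median log2 fold change of 0.43 in mild and 0.25 in severe drought against -0.00 and -0.02 over all genes. After 30 min of heat 1 of the 7 fell and none rose, where 19.6% of all genes fell, with a median of 0.21 against -0.14 over all genes. This was the glycolate oxidase gene GLO3, from 23.4 to 6.55 CPM, by 1.84 ± 0.17 on the log2 scale. Under scaling by total counts 4 of the 7 fell at 30 min, where 61.0% of all genes fell, and the median was -0.65 against -1.02 over all genes.

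After 60 min 3 of the 7 fell and none rose, where 15.8% of all genes fell, with a median of -0.41 against -0.09 over all genes. By total counts 3 also fell, where 18.6% of all genes did. Those 3 were GLO3 (to 9.32 CPM, -1.33 ± 0.17), the glycolate oxidase gene GLO4 (29.9 to 14.8 CPM, -1.01 ± 0.19) and GDCH, which encodes the H protein of glycine decarboxylase (838 to 434 CPM, -0.95 ± 0.27). The call of GDCH was lost without replicate 2 or 3 of the 60 min group (adjusted p up to 0.0736 in edgeR). The glycolate oxidase genes GLO1 and GLO5, named after their values were seen, were not called. GLO1 had 2146 CPM in the wet control and 2159 CPM at 60 min (adjusted p = 0.985 in edgeR), and GLO5 had 924 and 792 CPM (adjusted p = 0.68).

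From 30 to 60 min GDCH, the chloroplast glutamine synthetase gene GS2 and GLO4 fell and GLO3, named after its values were seen, rose, where 13.9% of all genes fell and 10.4% rose, with a median of -0.64 for the list. GDCH went from 972 to 434 CPM and GS2 from 4088 to 2155 CPM. Scaled by total counts the 3 falls were not called, at -0.40 for GDCH, -0.15 for GS2 and 0.12 for GLO4, and the median was 0.12 against 0.74 over all genes. With 1 library left out GDCH kept its call, GS2 lost it in 5 of 6 fits and GLO4 in all 6. The rise of GLO3 from 6.55 to 9.32 CPM was lost in 5 of 6 such fits and under the replicate block, and was 1.28 by total counts.

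Enzymes that remove peroxide with a reductant included genes that rose where CATA fell. Of 26 genes of this list in the count table, 15 had a matched name, and the others were left out. Of these 15 genes, 6 rose and none fell after 30 min, where 19.3% of all genes rose and 19.6% fell. The median log2 fold change was 0.29 against -0.14 over all genes. Scaled by total counts 2 rose and 7 fell, where 7.23% of all genes rose and 61.0% fell, with a median of -0.58 against -1.02, so the balance of this list at 30 min rests on the scaling. APX2, a cytosolic ascorbate peroxidase, rose from 400.4 to 1964 CPM (2.29 ± 0.14, and 1.41 by total counts). APX3, a peroxisomal ascorbate peroxidase, rose from 6.22 to 257 CPM (5.37 ± 0.79, and 4.47 by total counts). Both passed the test under either scaling. The cytosolic APX1 rose from 40.4 to 155 CPM (1.94 ± 0.44), and was 1.04 with an adjusted p of 0.069 by total counts. The other risers, named after their values were seen, were the chloroplast genes APX8 and PRXIIE-1 and the monodehydroascorbate reductase gene MDAR2. With 1 library left out APX8 lost its call in 4 of 6 fits and PRXIIE-1 in 5 of 6, while MDAR2 kept it. By total counts APX8 and MDAR2 were not called, and PRXIIE-1 was called lower.

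After 60 min 4 of the 15 rose and 3 fell, where 16.2% of all genes rose and 15.8% fell, with a median of 0.10. By total counts 4 rose and 4 fell, where 12.6% of all genes rose and 18.6% fell, with a median of -0.02. APX2 stood at 1359 CPM (1.76 ± 0.13), APX3 at 92.8 CPM (3.90 ± 0.73) and the chloroplast peroxiredoxin gene PRXIIE-1 at 22.7 CPM (0.73 ± 0.13). These 3 kept their calls whichever library was left out and under total counts. The other riser was APX1 (2.22), and the 3 that fell were APX5 (-0.77), PRXIIC (-0.42) and the chloroplast peroxiredoxin gene bas1 (-0.81), all 4 named after their values were seen. With 1 library left out at a time APX1 and APX5 kept their calls, PRXIIC lost its call in 5 of 6 fits (adjusted p up to 0.12) and bas1 in 3 of 6 (up to 0.14).

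From 30 to 60 min none of the 15 rose and 5 fell, where 10.4% of all genes rose and 13.9% fell, with a median of -0.52. By total counts 4 rose and none fell, where 49.2% of all genes rose and 3.32% fell, with a median of 0.24 against 0.74. The falls with the smallest p were those of bas1 (948 to 441 CPM), APX2 (1964 to 1359 CPM) and PRXIIC (213 to 149 CPM). By total counts none of these 3 was called, at -0.36, 0.23 and 0.24. With 1 library left out APX2 lost its call in 3 of 6 fits and PRXIIC in 2 of 6, while bas1 kept it.

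In mild drought none of the 15 passed the test, with a median of 0.18 on the log2 scale. In severe drought 1 did, APX1, which rose from 40.4 ± 30.9 to 169 ± 16.6 CPM (2.07 ± 0.45, adjusted p = 0.029 in edgeR), where 1.64% of all genes rose. That call was lost without wet control replicate 2, without any one of the severe drought replicates, and under total counts (1.87, adjusted p = 0.069).

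PEX11 proteins shape and divide the peroxisomes that hold catalase, and the 5 listed PEX11 genes were all matched and tested. None passed in drought, and none fell in heat on the TMM scale. At 30 min 1 of the 5 rose, where 19.3% of all genes rose and 19.6% fell. At 60 min 2 rose, where 16.2% of all genes rose and 15.8% fell. From 30 to 60 min 1 rose, where 10.4% of all genes did. PEX11-3 rose after 60 min of heat from 6.82 to 13.5 CPM (0.99 ± 0.16), whichever library was left out. At 30 min it stood at 9.22 CPM, called at 0.43, a call lost in 4 of 6 fits with 1 library left out. By total counts it was at -0.47 at 30 min, and 3 of the 5 fell, where 61.0% of all genes fell. PEX11-3 also rose from 30 to 60 min (0.55, and 1.32 by total counts), a call lost without replicate 1 or 2 at 30 min or without one of the 60 min replicates. PEX11-4 rose at 60 min from 49.7 to 86.1 CPM (0.79 ± 0.26), a call lost without any one of 5 of the 6 libraries compared. Of the NADPH oxidase genes, whose products make superoxide at the plasma membrane, 1 of 9 could be matched, RBOHB. It fell from 129 to 42.8 CPM at 60 min of heat (-1.59 ± 0.46), a call lost without wet control replicate 3 or either of 2 of the 60 min libraries.

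**Figure D5:**
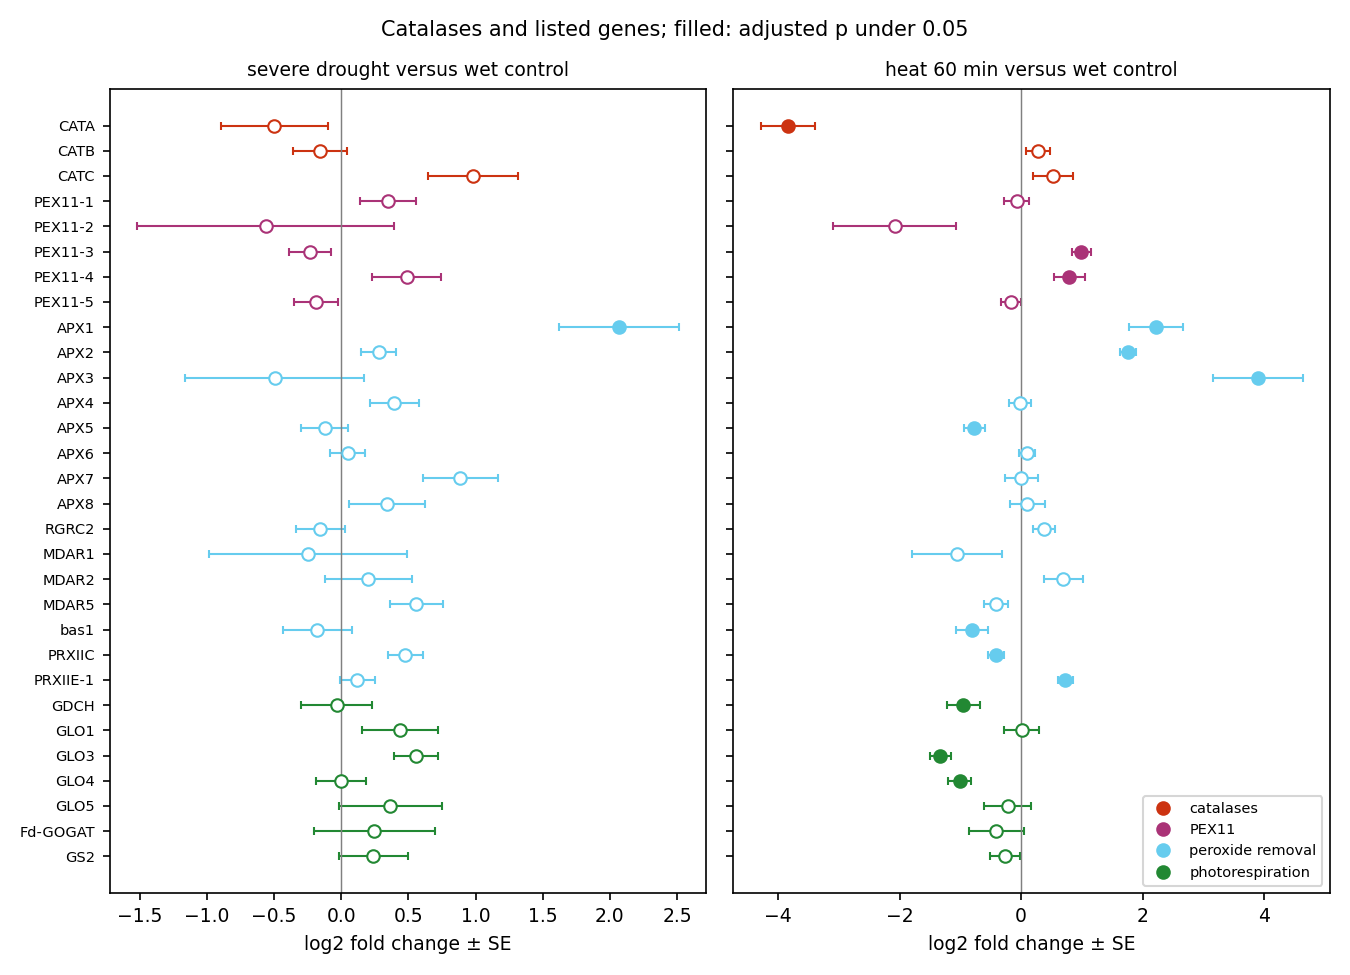
Log2 fold change ± SE (horizontal axis) of the catalases and of the listed PEX11, peroxide removal and photorespiration genes in severe drought (left) and after 60 min of heat (right), both against the wet control, with filled points for an adjusted p under 0.05. CATA at -3.84 lies lowest in the heat panel, and APX3 at 3.90 lies highest.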

How the data were processed

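The deposited file gives raw counts of reads for each gene, not normalized by the authors. An RNeasy kit was used for RNA and a stranded NEBNext kit for mRNA libraries, per the labels' protocols. The submitters' processing notes name Trimmomatic, HISAT2 and featureCounts. Versions, a genome build and how strand was handled were not given in the sources used here, so reads of overlapping or antisense genes may be mixed. Reads of the 3 related catalases may be shared if multiply mapped reads were counted.

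The main test was edgeR 4.0.16 in R 4.3.3. Genes passed filterByExpr at a count of 10 and a total of 15, and TMM factors and a robust quasi-likelihood model were fitted with 1 mean per group over all 15 libraries. P-values were adjusted over all 20462 genes by Benjamini and Hochberg, with 0.05 as the threshold. An SE is a log2 fold change over the square root of F, and intervals are 95%. Means ± SD are over 3 libraries. The principal component, the genes ranked by r and the pairing of replicate numbers used log2 CPM with a prior count of 2. The deviations of the catalases used log2 CPM without a prior count. Alternatives were RLE factors, total counts, no filter, DESeq2 1.42.0, the 2 groups alone, a replicate block and each library left out. The fits without 5 libraries, and the alternatives for the relations between deviations, were added after seeing the data. The model was also run on simulated counts, drawn independently for each gene and library. These lack the component that the real libraries share, so no result here rests on them.

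The 3 catalases and the gene lists were chosen with earlier results of these data known, and the rule that defines the catalases names their loci and uses no level. By the naming rule, up to 3 members per list and comparison with the smallest p past the threshold are named, and of the 5 genes ranked by r for each catalase the first 2 are named. Listed names were looked up in assembly ASM3414082v1, whose identifiers differ from those of the table. A name was used where its symbol lay within 1500 kb of the expected place on the same chromosome. Of 73 fixed loci 69 were in the table, and 35 of those had such a symbol. CATA and CATB did, and CATC is named by its locus alone. Some aliases were chosen after the reference was seen.

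Replicates of a group differed by a chi-square per gene of 31.1 to 495.3, so none is a copy of another library of its group. This does not show that they came from separate plants. Same-numbered libraries of the 2 heat groups deviated together (r = 0.21 to 0.45 for the 3 pairs, -0.42 to 0.27 for the 6 others), a pairing read from the values alone. In no other comparison did every pair exceed 0.1.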

Additional observations from a re-analysis of the deposited data

How the results depend on the processing

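The 3 calls of CATA in heat held under every alternative run. Leaving out 1 library at a time gave log2 fold changes of -1.83 to -1.10 at 30 min (adjusted p up to 0.0478), -4.13 to -3.44 at 60 min (up to 0.00045) and -2.52 to -2.04 between them (up to 0.011). With the replicate block CATA was -1.38 at 30 min (adjusted p = 0.020), -3.77 at 60 min and -2.39 between them, and CATC 1.02 in severe drought (adjusted p = 0.165). The block changed no call of a catalase.

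DESeq2 called CATC in severe drought (0.99, adjusted p = 0.0358). Scaling by total counts, which drops the factors of 0.622 to 0.706 at 30 min, turned CATB at 30 min to -0.67 and CATC to -0.64, and called CATB (0.80) and CATC (1.06) from 30 to 60 min. It also turned PEX11-3 at 30 min to -0.47, APX8 to -0.03 and PRXIIE-1 from 0.35 to -0.54 (adjusted p = 0.011 in edgeR). From 30 to 60 min it turned GLO4 (0.12), APX2 (0.23), PRXIIC (0.24), APX5 (0.18) and the monodehydroascorbate reductase gene MDAR5 (0.13).

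Small values crossed 0 when single libraries were left out. For severe against mild drought CATA ran from -0.22 to 0.49, CATC from -0.19 to 0.30, CATB to CATC from -0.25 to 0.58, CATA to CATC from -0.46 to 0.64 and CATA to CATB from -0.30 to 0.090. For 30 min of heat CATB ran from -0.011 to 0.30, CATC from -0.032 to 0.39 and CATB to CATC from -0.43 to 0.37. CATB to CATC ran from -0.70 to 0.10 at 60 min, and from -0.44 to 0.052 between the heat times, where CATB ran from -0.014 to 0.17. The causes were not tested.

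Counts over all genes moved more. Mild drought had 294 calls in edgeR and 2284 in DESeq2, severe drought 550 and 1811. At 30 min of heat 7953 became 13955 by total counts, and from 30 to 60 min 4971 became 10746. With the 2 groups alone mild drought had 0 and severe drought 32. In DESeq2 the calls of the peroxide removal list, with 15 genes, went from 0 to 4 in mild and from 1 to 4 in severe drought. DESeq2 called 11.6% and 8.86% of the genes it tested there, where edgeR called 1.44% and 2.69%. The calls of PEX11, with 5 genes, went from 1 to 4 at 30 min of heat, where DESeq2 called 43.7% of the genes it tested and edgeR 38.9%.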
